A study of Mus musculus with 11 samples.

Results

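The genes described here are 10 genes of DNA replication and of the p53 response, namely Mcm2, Mcm3, Mcm4, Mcm5, Mcm6, Mcm7, Ccnd1, Cdkn1a, Gadd45a and Mdm2. They were taken by symbol from a table of liver RNA levels, and 10 of the 10 symbols were found among its 13636 genes. The RNA came from the flash-frozen livers of male C57BL/6J mice, an inbred laboratory strain. The libraries were 4 from livers given a miR-30c mimic, 3 given a scramble oligomer and 4 given PBS, and each library is named here by its group and replicate number. In all 3 groups a Western diet was begun when the mice were 8 weeks old, and injections followed a month later. The dose of mimic or scramble was raised over 6 weeks of injections, starting at 2.5 mg/kg, then 5.0 mg/kg, and ending at 7.5 mg/kg. Scramble shares the injection of an oligomer with the mimic, and PBS shares the diet and the injections without an oligomer. Sources used here name no route of injection and do not say which liver cells take up an oligomer.

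Mcm2 to Mcm7 encode the subunits of the ring-shaped helicase that is loaded onto replication origins in G1 and unwinds DNA in S phase. Their transcription is switched on by E2F factors when a cell leaves quiescence, and most hepatocytes of an adult liver are quiescent. Ccnd1 encodes cyclin D1, the partner of CDK4 and CDK6 in G1. Cdkn1a encodes p21, an inhibitor of cyclin-dependent kinases and a main transcriptional target of p53. Gadd45a is a stress-inducible gene that p53 and other factors can switch on, and Mdm2 encodes the ubiquitin ligase that p53 induces and that in turn degrades p53.

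In the GENCODE M21 annotation of mm10, the genes on the minus strand are Mcm2 at chr6:88883474-88898780, Mcm3 at chr1:20802968-20820312, Mcm4 at chr16:15623897-15637400, Mcm6 at chr1:128331590-128359664, Mcm7 at chr5:138164583-138172422, Ccnd1 at chr7:144929931-144939925, Gadd45a at chr6:67035096-67037457 and Mdm2 at chr10:117688875-117710758. Those on the plus strand are Mcm5 at chr8:75109569-75128439 and Cdkn1a at chr17:29090976-29100727.

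Promoter windows from RefSeq on GRCm38.p6, the assembly also called mm10, were matched for 8 of the 10 genes, all but Mcm4 and Ccnd1. Each window runs from 250 bases before to 50 bases after an annotated start, so that it holds 300 bases, and Mcm7 and Cdkn1a have a second annotated start with its own window. The 5 windows below are shown because they hold a match to an E2F or a p53 motif. They are written 5′ to 3′ on the strand of the gene, and capitals mark the matches.
Mcm3 (chr1:20820263-20820562, minus strand): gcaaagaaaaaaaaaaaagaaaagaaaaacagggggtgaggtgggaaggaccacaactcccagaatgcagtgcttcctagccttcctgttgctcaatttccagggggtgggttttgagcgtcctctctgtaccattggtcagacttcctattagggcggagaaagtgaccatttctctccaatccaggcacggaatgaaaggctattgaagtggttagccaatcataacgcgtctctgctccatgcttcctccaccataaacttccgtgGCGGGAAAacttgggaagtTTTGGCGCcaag
Mcm5 (chr8:75109259-75109558, plus strand): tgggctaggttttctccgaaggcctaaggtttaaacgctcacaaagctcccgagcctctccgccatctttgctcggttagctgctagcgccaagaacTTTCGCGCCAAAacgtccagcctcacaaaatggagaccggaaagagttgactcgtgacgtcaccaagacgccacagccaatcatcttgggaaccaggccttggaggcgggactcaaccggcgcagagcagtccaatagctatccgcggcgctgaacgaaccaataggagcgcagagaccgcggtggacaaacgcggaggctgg
Mcm6 (chr1:128359656-128359955, minus strand): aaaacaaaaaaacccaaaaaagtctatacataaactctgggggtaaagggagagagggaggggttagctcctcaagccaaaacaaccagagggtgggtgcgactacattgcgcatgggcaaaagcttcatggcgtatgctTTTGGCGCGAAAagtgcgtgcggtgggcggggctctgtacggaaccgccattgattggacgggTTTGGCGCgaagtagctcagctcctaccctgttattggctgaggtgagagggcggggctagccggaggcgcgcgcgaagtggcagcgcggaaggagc
Mcm7 (chr5:138171834-138172133, minus strand): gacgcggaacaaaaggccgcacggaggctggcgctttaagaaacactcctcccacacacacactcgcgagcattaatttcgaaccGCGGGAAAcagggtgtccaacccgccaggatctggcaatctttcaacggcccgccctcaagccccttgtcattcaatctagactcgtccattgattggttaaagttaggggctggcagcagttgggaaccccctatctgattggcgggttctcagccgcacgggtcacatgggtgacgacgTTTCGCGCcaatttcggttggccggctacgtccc
Cdkn1a (chr17:29090729-29091028, plus strand): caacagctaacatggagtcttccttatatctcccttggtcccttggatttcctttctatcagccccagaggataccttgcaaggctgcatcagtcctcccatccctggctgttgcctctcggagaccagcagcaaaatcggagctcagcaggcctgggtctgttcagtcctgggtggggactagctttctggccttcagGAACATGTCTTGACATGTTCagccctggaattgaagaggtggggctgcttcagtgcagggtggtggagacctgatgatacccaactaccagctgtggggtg

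The E2F motifs searched were the 4 octamers TTTGGCGC, TTTCCCGC, TTTCGCGC and TTTGCCGC, each on both strands. Counting the first transcribed base as 1, with no base 0, Mcm3 had them at 20 to 27 and 39 to 46, Mcm5 at -153 to -146 and -149 to -142, and Mcm6 at -110 to -103, -106 to -99 and -47 to -40. The upstream start of Mcm7 had them at -165 to -158 and at 17 to 24. The pair in Mcm5 and the first pair in Mcm6 overlap each other on opposite strands. Mcm2, the other window of Mcm7, Cdkn1a, Gadd45a and Mdm2 held none of these octamers in their windows. Of all 32851 promoter windows 744 (2.26%) held at least 1 octamer and 32 (0.0974%) held at least 2, and of 12071 windows of measured genes 443 (3.67%) and 24 (0.199%) did. The p53 motif was the 20-base consensus of 2 adjoining half-sites, with 1 mismatch allowed outside the cores. It was found at -51 to -32 of the upstream start of Cdkn1a as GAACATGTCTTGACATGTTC. Of all windows 18 (0.0548%) held such a match, and 3 windows of measured genes did. The mismatch was allowed after an exact search had found none in measured genes.

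**Figure D1:**
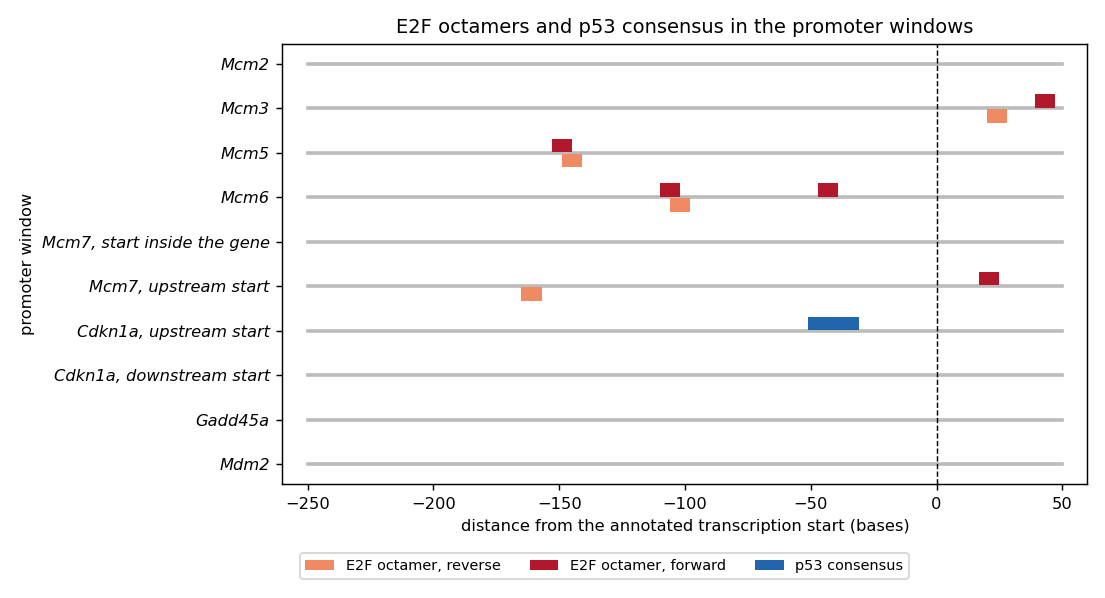
Positions of E2F octamers (red forward, orange reverse) and of the p53 consensus (blue) in 10 promoter windows of 8 genes. The x axis is the distance in bases from the annotated start (dashed line). Octamers lie in the windows of Mcm3, Mcm5, Mcm6 and the upstream start of Mcm7, and the p53 match lies just before the upstream start of Cdkn1a.

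Mouse miR-30c-5p, whose sequence RefSeq gives for Mir30c-1 on chromosome 4 and Mir30c-2 on chromosome 1, is shown because the mimic is named after it. The capitals mark its seed, bases 2 to 8, and the sequence of the injected oligomer itself is not given in the sources used here.
miR-30c-5p: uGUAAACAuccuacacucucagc

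The 7-base match to this seed, TGTTTAC, occurred in 0 of the 10 genes when the longest annotated 3′ UTR of each was searched. Those UTRs ran from 136 bases in Mcm7 to 2676 bases in Ccnd1. Of 11462 measured genes with an annotated 3′ UTR 1889 (16.5%) held the match, at a median length of 1350 bases.

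Levels are given as scaled CPM, the deposited values, in which counts are divided by an effective size of each library. Differences are on the scale of log2(scaled CPM + 1), each with its standard error (SE) and with a p-value from limma that was adjusted over all 13636 genes by the Benjamini-Hochberg method. A gene is called at an adjusted p under 0.05. Adding 1 understates the change of genes at such low levels, so the plain ratio of the group means is given as well. Reads counted per library, inferred from the smallest step between values, ran from 39705157 to 60399018 in mimic, from 74519792 to 88869950 in scramble and from 62848115 to 101380174 in PBS. The 10 genes had from 12 reads (Mcm5) to 1062 reads (Mdm2) in a library. The ratio of effective library size to column total stood at 1.57 for mimic replicate 1 and 1.65 for mimic replicate 4. It was 1.15 for replicate 2 and 0.968 for replicate 3, and ran from 0.721 to 1.02 in scramble and from 0.665 to 1.01 in PBS. Mimic replicates 1 and 4 stand apart in this ratio. Results of the 10 genes that change without them are given both ways, and other named genes that then lose a call are listed at the end.

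Against scramble, 7 of the 10 genes were called, 6 higher and 1 lower in mimic livers, where 32% of all genes were called, 17.3% higher and 14.7% lower. Against PBS, 8 were called, 7 higher and 1 lower, where 37.1% of all genes were called, 20% higher and 17.1% lower. Libraries of the 2 groups did not overlap for 7 of the 10 genes against scramble (40.8% of all genes) and for 8 against PBS (31.7%). Both comparisons use the same 4 mimic libraries. Between scramble and PBS 0 genes were called by limma, of the 10 and of the whole table (0%), and 1 of the 10 and 3.18% of all genes had an unadjusted p under 0.05. The 5 helicase genes Mcm2 to Mcm6 and the p21 gene Cdkn1a rose in mimic against both other groups. Gadd45a fell against both, Ccnd1 rose against PBS, and Mcm7 and Mdm2 were called in neither comparison. The table lists genes that reach 1 CPM of the column total in at least 3 libraries, as 13636 of its 13636 genes do. Mcm2, Mcm3, Mcm5, Mcm6 and Cdkn1a reach this minimum only with the mimic libraries counted, since Mcm2 and Mcm5 are at or above it in 0 of the 7 scramble and PBS libraries, Mcm3 and Cdkn1a in 1 and Mcm6 in 2. For a gene listed only through the group in which it is high, the listing itself favours a difference. The counts of called and of non-overlapping genes therefore describe the 10 genes and support nothing. The same holds for 1120 of all genes, of which 536 were called higher and 4 lower against scramble.

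**Figure D2:**
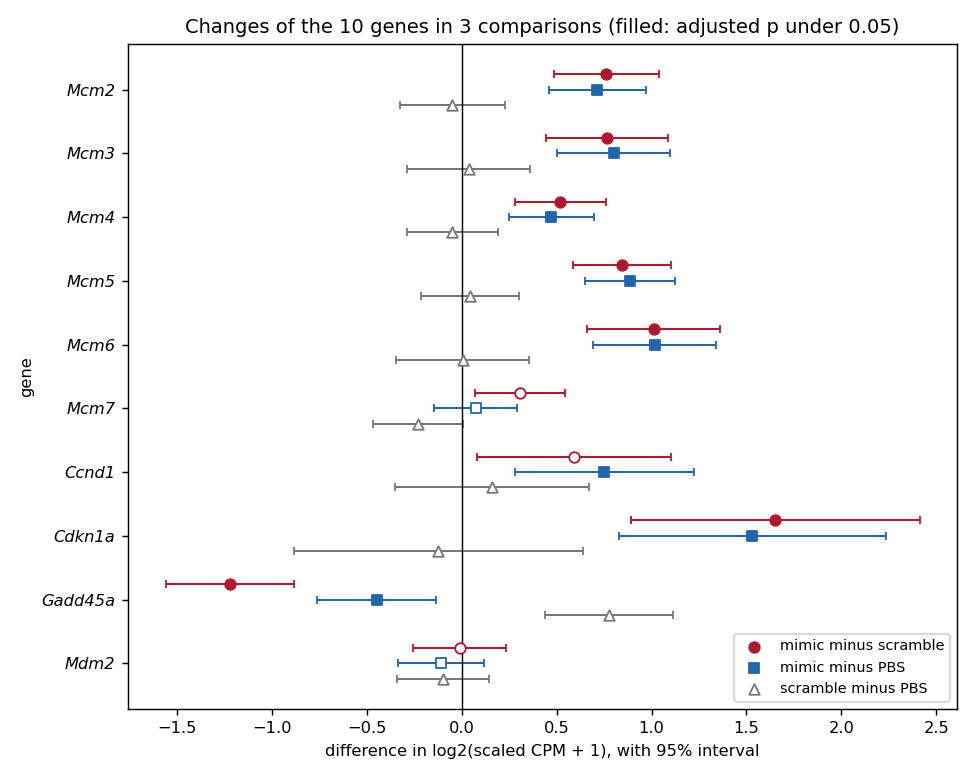
Differences of the 10 genes on the log2(scaled CPM + 1) scale with 95% intervals, for mimic minus scramble (red circles), mimic minus PBS (blue squares) and scramble minus PBS (grey triangles). Filled marks have an adjusted p under 0.05. Mcm2 to Mcm6 and Cdkn1a lie right of 0 in both mimic comparisons and Gadd45a left of 0, while the intervals of Mdm2 cover 0.

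The helicase genes were low in this tissue and rose together, by 1.83 to 3.77 times the scramble mean for Mcm2 to Mcm6 and 1.71 to 4.26 times the PBS mean. Mcm2, part of the gate through which the ring opens around DNA, had 2.16, 1.54, 1.30 and 2.20 scaled CPM in mimic replicates 1 to 4, against 0.697, 0.792 and 0.437 in scramble and 0.724, 0.726, 0.579 and 0.742 in PBS. The lowest mimic library was above the highest library of either other group. Its log2 difference was 0.76 (SE 0.13, adjusted p = 0.0012 by limma) against scramble and 0.71 (SE 0.12, adjusted p = 0.00097) against PBS. Mcm5, which closes the same gate, showed the greatest ratio of the helicase genes, 3.77 to scramble and 4.26 to PBS. It had 1.70, 1.41, 1.21 and 1.69 scaled CPM in mimic, against 0.504, 0.502 and 0.187 in scramble and 0.347, 0.540, 0.297 and 0.226 in PBS, again with no overlap. The log2 difference was 0.84 (SE 0.12, adjusted p = 0.00045 by limma) against scramble and 0.89 (SE 0.11, adjusted p = 0.00017) against PBS. As few as 12 reads stood behind a value of Mcm5, in the library with the lowest value.

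Mcm6 and Mcm4, which with Mcm7 form the core of the helicase motor, differed in size of change. Mcm6 had 3.68, 3.27, 2.04 and 3.46 scaled CPM in mimic, against 0.831, 1.37 and 0.874 in scramble and 0.754, 1.38, 0.905 and 1.03 in PBS. The groups did not overlap, and the log2 difference was 1.01 (SE 0.16, adjusted p = 0.00095 by limma) against scramble and 1.02 (SE 0.15, adjusted p = 0.00047) against PBS. Mcm4 had 2.37, 1.85, 1.66 and 2.26 scaled CPM in mimic, against 1.26, 1.15 and 0.920 in scramble and 1.39, 1.34, 0.964 and 1.05 in PBS, with no mimic library in the range of the others. It was the least changed of the 5 called helicase genes, with a log2 difference of 0.52 (SE 0.11, adjusted p = 0.0050 by limma) against scramble and 0.47 (SE 0.10, adjusted p = 0.0048) against PBS. Of these 5 only Mcm4 reaches the minimum of the table without the mimic libraries, so the listing favours larger changes in the other 4. Without mimic replicates 1 and 4 the differences of Mcm4 were 0.39 (adjusted p = 0.051) and 0.34 (adjusted p = 0.061), while the other 4 were still called. The interval of the differences was 0.28 to 0.76 for Mcm4 and 0.66 to 1.36 for Mcm6 against scramble.

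Mcm3, the remaining called subunit, had 2.66, 1.98, 1.39 and 2.20 scaled CPM in mimic, against 0.653, 1.14 and 0.593 in scramble and 0.739, 0.838, 0.846 and 0.533 in PBS. Mimic was above both other groups in each library, at a log2 difference of 0.76 (SE 0.15, adjusted p = 0.0030 by limma) against scramble and 0.80 (SE 0.14, adjusted p = 0.0012) against PBS.

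Mcm7 stood apart from the other subunits, though like Mcm4 it reaches the minimum of the table without the mimic libraries. It had 3.98, 3.45, 2.77 and 4.27 scaled CPM in mimic, against 2.71, 2.80 and 2.62 in scramble and 3.35, 3.76, 3.12 and 3.23 in PBS. Mimic replicate 3 lay within the scramble range, the PBS libraries lay inside the mimic range, and the 3 scramble libraries lay below the 4 of PBS. The log2 difference was 0.30 (SE 0.11, interval 0.07 to 0.54, adjusted p = 0.051 by limma) against scramble and 0.07 (SE 0.10, interval -0.15 to 0.29, adjusted p = 0.59) against PBS, and it was -0.04 against PBS after quantile normalization. Scramble minus PBS was -0.23 (unadjusted p = 0.055). In the annotation Mcm7 overlaps Cops6 and Ap4m1 on the other strand and hosts the microRNA genes Mir25, Mir93 and Mir106b. The library kit was stranded, but whether strand was used in counting is not given in the sources used here, so that its level is uncertain. Ap4m1, a subunit of an adaptor complex of vesicle transport whose start lies 420 bases from that of Mcm7, averaged 3.54 ± 0.77 scaled CPM in mimic (SD, n = 4), 4.57 ± 0.75 in scramble (SD, n = 3) and 4.48 ± 0.48 in PBS (SD, n = 4), and was not called. Without mimic replicate 2 its difference against scramble was -0.40 (adjusted p = 0.029). Without mimic replicate 3 that of Mcm7 was 0.40 (adjusted p = 0.0076).

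**Figure D3:**
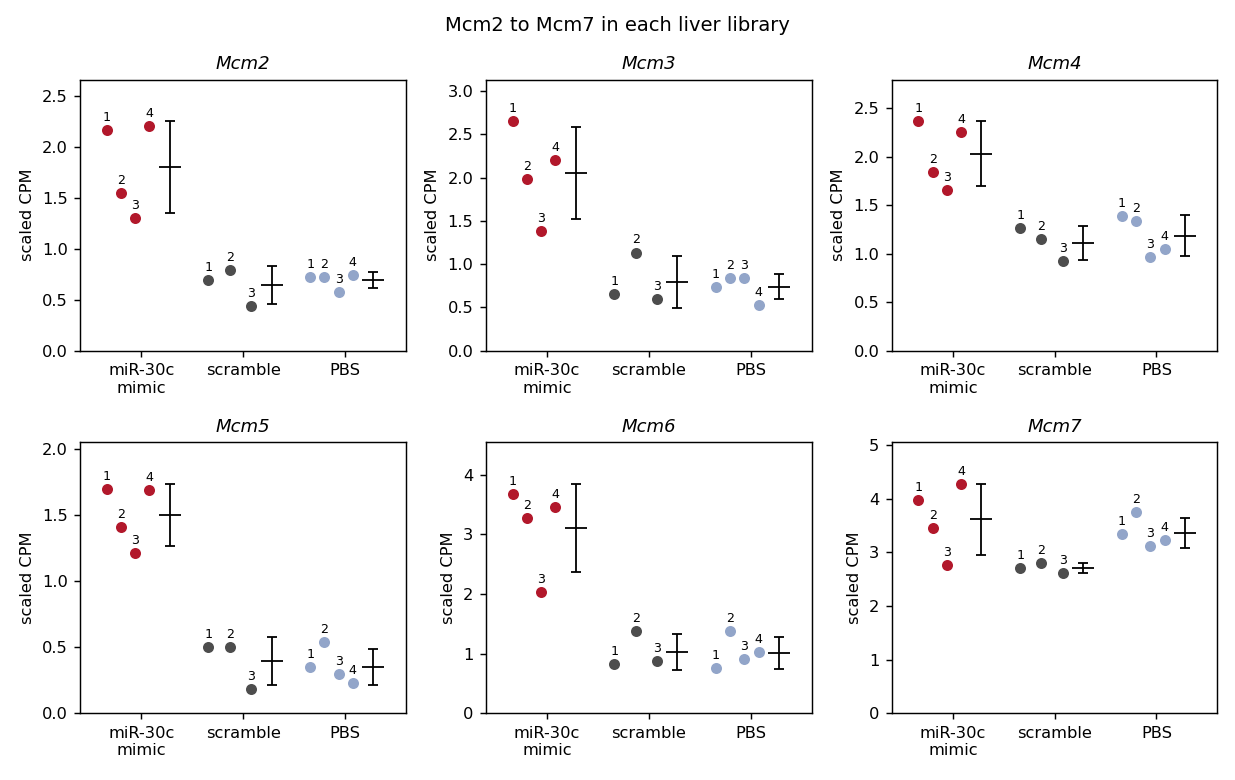
Scaled CPM of Mcm2 to Mcm7 in each library (numbered points) of mimic (red), scramble (dark grey) and PBS (blue-grey), with the group mean and SD as black bars. In Mcm2 to Mcm6 the 4 mimic libraries lie above all others, with mimic replicate 3 the lowest of the 4. Mcm7 overlaps between groups.

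Within mimic, the helicase genes varied together across libraries. Their summed level was 16.5, 13.5, 10.4 and 16.1 scaled CPM in mimic replicates 1 to 4, against 6.66, 7.75 and 5.63 in scramble and 7.30, 8.58, 6.71 and 6.81 in PBS. Replicate 3 was the lowest mimic library for each of the 6 genes, and replicates 1 and 4 were the highest. Mcm7 made up 24.1 to 26.7% of the sum in mimic, against 36.1 to 46.5% in scramble and 43.8 to 47.4% in PBS. Centred log2 profiles over the 11 libraries lay closest to the helicase mean for Mcm2, with a root-mean-square difference of 0.066, and furthest for Mcm7, with 0.26. Among the genes outside the set, the 6 nearest were Abcc1 (0.071), AK179207 (0.080), Bsg (0.080), Glmp (0.082), Tsen54 (0.083) and Tpm3 (0.089). All of them were called higher in mimic against scramble and PBS, which their choice by nearness to the helicase mean favours. Abcc1, an efflux transporter, had 2.29, 1.68, 1.37 and 2.61 scaled CPM in mimic, against 0.919, 0.990 and 0.624 in scramble and 0.905, 0.931, 0.846 and 0.888 in PBS. It too was lowest in replicate 3 among the mimic libraries, which its choice by nearness also favours. The likeness is measured over 11 libraries that share their depth and scaling, and is a description.

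The table holds RNA of whole liver, in which more cells of a type and more RNA per cell cannot be told apart. Markers of several other cell types also differed between mimic and the other groups. Of 16 macrophage markers 9 were called higher in mimic against scramble and 3 lower, and 4 of the 9 reach the minimum of the table only with the mimic libraries. Their summed level was 417, 555, 461 and 448 scaled CPM in mimic replicates 1 to 4, 140 to 217 in scramble and 122 to 299 in PBS. The 3 that fell, Clec4f, Timd4 and Vsig4, mark resident Kupffer cells, and Timd4 averaged 0.155 ± 0.175 scaled CPM in mimic (SD, n = 4), 2.84 ± 1.26 in scramble (SD, n = 3) and 3.77 ± 1.06 in PBS (SD, n = 4). All 4 measured neutrophil markers of 9 listed were higher, 3 of them listed only through the mimic libraries, at summed levels of 15.1, 19.5, 30.2 and 20.5 in mimic replicates 1 to 4, 1.14 to 1.76 in scramble and 1.65 to 2.64 in PBS, and Ltf was at 0 in 2 scramble libraries. Of 10 markers of stellate cells and fibroblasts 7 were higher and 1 lower, at 220, 227, 193 and 367 in mimic replicates 1 to 4, 93.1 to 105 in scramble and 64.5 to 104 in PBS. Within mimic the helicase sum was highest in replicate 1 and lowest in replicate 3. The neutrophil sum was lowest in replicate 1 and highest in replicate 3, and the macrophage sum was lowest in replicate 1 and highest in replicate 2. The sum of stellate cells and fibroblasts was lowest in replicate 3, like the helicase sum, and highest in replicate 4. Of 6 bile duct markers 2 were measured, at 35.4 to 42.5 in mimic, 13.5 to 22.8 in scramble and 11.7 to 20.6 in PBS, and 1 was called higher against scramble and 2 against PBS. Spp1, which encodes osteopontin and is also made by macrophages, rose by 1.02 (adjusted p = 0.0023 by limma) against scramble. Of 8 markers of sinusoidal endothelium 2 were higher and 0 lower against scramble and 1 higher and 3 lower against PBS, at 59.9 to 94.2 in mimic, 68.5 to 87.5 in scramble and 71.7 to 87.5 in PBS. Of 10 hepatocyte markers 1 was higher and 0 lower against scramble, and 2 were higher and 2 lower against PBS, at 40483 to 45476 in mimic, 41220 to 45884 in scramble and 39608 to 46339 in PBS. Single markers in this sum differed in opposite directions. Trf, which encodes transferrin, averaged 10112 scaled CPM in mimic, 3871 in scramble and 3688 in PBS, and rose by 1.32 (adjusted p = 0.0025 by limma) against scramble. Apob, which encodes apolipoprotein B, averaged 2366 in mimic, 3260 in scramble and 3312 in PBS, and its difference was -0.45 (adjusted p = 0.057) against scramble and -0.48 (adjusted p = 0.029) against PBS. Alb, which encodes albumin, averaged 12092 in mimic, 17305 in scramble and 17543 in PBS and was not called. None of the 10 lymphocyte markers was among the measured genes. RNA integrity numbers were 8.4 to 8.7 in 3 mimic libraries, 9.2 in 1 scramble library and 8.5 to 8.8 in 3 PBS libraries, and are missing for 4. The part of these cells, of RNA quality and of the scaling in the changes of the 10 genes was not tested.

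Cyclin D1 rose against PBS, and its mimic libraries were spread widely. Ccnd1 had 7.17, 9.82, 14.1 and 5.79 scaled CPM in mimic, against 6.66, 6.18 and 3.95 in scramble and 4.89, 4.80, 5.24 and 4.31 in PBS. Replicate 3, the lowest for the helicase genes, was the highest for Ccnd1, and replicate 4 lay within the scramble range. The log2 difference was 0.75 (SE 0.22, adjusted p = 0.019 by limma) against PBS and 0.59 (SE 0.23, adjusted p = 0.072) against scramble. It was 0.71 (adjusted p = 0.051) against PBS without PBS replicate 4, and against scramble it was 0.77 (adjusted p = 0.026) without mimic replicate 4 and 0.98 (adjusted p = 0.0078) without mimic replicates 1 and 4. Ccnd1 overlaps LTO1 on the other strand.

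The p21 gene Cdkn1a had the largest change of the 10 genes, at 7.32 times the scramble mean and 5.93 times the PBS mean. Cdkn1a is listed only through the mimic libraries, which favours a large change, so that its rank and its calls support nothing. It had 8.54, 2.86, 1.8 and 5.33 scaled CPM in mimic, against 0.682, 0.951 and 0.265 in scramble and 0.965, 1.25, 0.430 and 0.484 in PBS. No library of mimic overlapped the other groups, but the mimic libraries differed among themselves more than for any helicase gene, with a mean of 4.63 ± 3.0 (SD, n = 4). The order of the mimic libraries, replicate 1 over 4 over 2 over 3, was that of the summed helicase genes. The ratio of effective library size to column total had nearly the same order, with 1.57, 1.15, 0.968 and 1.65 in mimic replicates 1 to 4. Its part in this order was not tested. The log2 difference was 1.65 (SE 0.35, adjusted p = 0.0048 by limma) against scramble and 1.53 (SE 0.32, adjusted p = 0.0040) against PBS. It was 1.03 (adjusted p = 0.017) and 0.91 (adjusted p = 0.022) without mimic replicates 1 and 4.

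Gadd45a went the other way. It had 4.22, 4.87, 4.22 and 4.27 scaled CPM in mimic, against 9.74, 12.4 and 12.8 in scramble and 9.20, 5.23, 6.02 and 5.57 in PBS. The 3 scramble libraries were the highest of the 11, the mimic libraries the lowest, and PBS lay between them, with PBS replicate 1 near scramble. Gadd45a fell by 1.22 on the log2 scale against scramble (SE 0.15, adjusted p = 0.00024 by limma), to 0.377 times the scramble mean. Against PBS it fell by 0.45 (SE 0.14, adjusted p = 0.029), to 0.676 times the PBS mean, and with plain library totals in place of the scaling this difference was 0.06 (adjusted p = 0.82). That call was lost without mimic replicate 1 (adjusted p = 0.064), 3 (adjusted p = 0.057) or 4 (adjusted p = 0.065), without PBS replicate 3 (adjusted p = 0.052) and without mimic replicates 1 and 4 (adjusted p = 0.15). Scramble minus PBS was 0.77 (SE 0.15, unadjusted p = 0.00033), the eighth smallest p of the table, at an adjusted p of 0.56. Without PBS replicate 1 it was 0.93 (adjusted p = 0.0498) and the single gene called in that comparison. Scramble and PBS did not overlap for 2 of the 10 genes, Gadd45a and Mcm7, and for 4.72% of all genes. E230016M11Rik, a non-coding gene that starts inside Gadd45a, 858 bases from its start and on the other strand, had 4.19, 5.39, 4.53 and 3.59 scaled CPM in mimic, against 6.84, 6.59 and 6.18 in scramble and 5.40, 3.18, 4.88 and 5.73 in PBS. It differed by -0.48 against scramble (adjusted p = 0.034 by limma), by 0.0098 with plain library totals, and by -0.08 against PBS (adjusted p = 0.68). The call was lost without mimic replicate 1, 3 or 4 and without scramble replicate 1, 2 or 3 (adjusted p = 0.050 to 0.10). Reads of the 2 genes cannot be told apart unless strand was used in counting.

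Mdm2 was level across the groups. It had 13.7, 13.6, 15.8 and 11.4 scaled CPM in mimic, against 13.8, 13.4 and 13.8 in scramble and 14.5, 12.5, 15.1 and 17.1 in PBS, and the 3 groups overlapped. The log2 difference was -0.01 (SE 0.11, interval -0.25 to 0.23, adjusted p = 0.95 by limma) against scramble and -0.11 (SE 0.10, interval -0.34 to 0.12, adjusted p = 0.42) against PBS. With plain library totals, which raise the median of all genes by 0.49 and 0.51, it was 0.54 and 0.46, neither called, and with quantile normalization it was 0.03 against scramble.

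**Figure D4:**
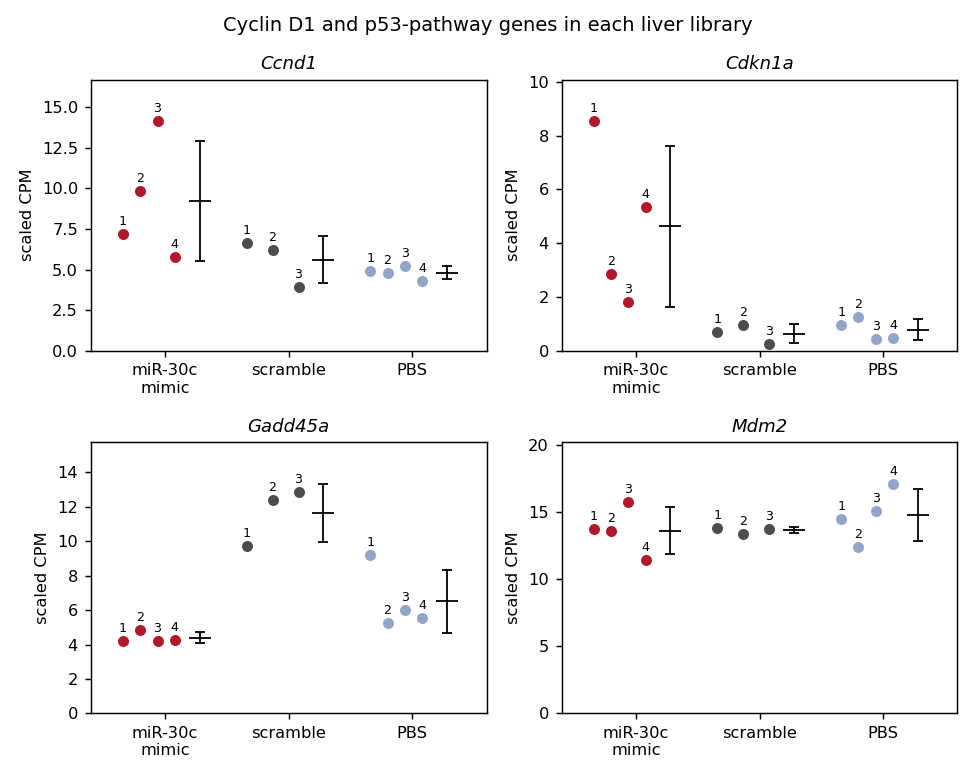
Scaled CPM of Ccnd1, Cdkn1a, Gadd45a and Mdm2 in each library (numbered points) of mimic (red), scramble (dark grey) and PBS (blue-grey), with the group mean and SD as black bars. Cdkn1a is higher and Gadd45a lower in the 4 mimic libraries than in the other 7, and Mdm2 overlaps between groups.

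Per kilobase of annotated exon the order of the genes differed between groups. In mimic the highest were Mdm2 (2.68 ± 0.35 scaled CPM per kilobase) and Gadd45a (2.49 ± 0.18), which did not differ beyond their spread, followed by Ccnd1 (1.96 ± 0.78) and Cdkn1a (1.30 ± 0.84; SD, n = 4 for each). In scramble Gadd45a (6.61 ± 0.95) was well above Mdm2 (2.69 ± 0.04) and Ccnd1 (1.19 ± 0.31), and Cdkn1a stood at 0.178 ± 0.097 (SD, n = 3 for each). In PBS Gadd45a (3.69 ± 1.03) and Mdm2 (2.91 ± 0.38) lay within their spread, above Ccnd1 (1.02 ± 0.08) and Cdkn1a (0.22 ± 0.11; SD, n = 4 for each). Of the helicase genes Mcm7 was the highest in each group, at 0.818 ± 0.149 in mimic, 0.613 ± 0.020 in scramble and 0.760 ± 0.064 in PBS. Mcm6 came next in mimic at 0.667 ± 0.158, against 0.22 ± 0.0646 in scramble and 0.218 ± 0.057 in PBS, where Mcm4 was above it at 0.309 ± 0.0483 in scramble and 0.33 ± 0.0585 in PBS. The lowest was Mcm2 in mimic (0.259 ± 0.065) and in scramble (0.0923 ± 0.0264), and Mcm5 in PBS (0.0882 ± 0.0337), though Mcm2 and Mcm5 did not differ beyond their spread in scramble and PBS.

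Lists of genes that act with the helicase, in the cell cycle and in the p53 response were counted in the same fit. The lists were written from general knowledge, and their counts stand beside the 17.3% of all genes called higher and the 14.7% called lower against scramble. Of 25 genes of origin licensing and helicase activation 18 were measured, 3 of them called higher and 1 lower, with a median log2 difference of 0.11 against 0.00 for all genes. Of these 18, 5 reach the minimum of the table only with the mimic libraries, among them 2 of the 3 called higher, Cdt1 and Wdhd1. Without scramble replicate 3 the 4 calls were 2. Cdt1, which loads the helicase onto origins, averaged 2.0 ± 0.0986 scaled CPM in mimic (SD, n = 4), 0.650 ± 0.112 in scramble (SD, n = 3) and 1.05 ± 0.34 in PBS (SD, n = 4), a log2 difference of 0.86 (adjusted p = 0.00041 by limma) against scramble. Gins1, a subunit of the complex that activates the helicase, rose by 0.44 (adjusted p = 0.012) and Wdhd1, which ties the helicase to polymerase alpha, by 0.38 (adjusted p = 0.010). Mcm10, an origin-firing factor that is no subunit of the ring, fell by 0.69 (adjusted p = 0.031) to 35.8 ± 9.0 scaled CPM in mimic (SD, n = 4), against 57.3 ± 7.2 in scramble (SD, n = 3) and 69.6 ± 17.4 in PBS (SD, n = 4). With plain library totals the difference of Mcm10 was -0.11 and not called, and its call was lost without mimic replicate 2 (adjusted p = 0.070) or 3 (adjusted p = 0.070) and without scramble replicate 1 (adjusted p = 0.11) or 3 (adjusted p = 0.081). That of Gins1 was lost without scramble replicate 3 (adjusted p = 0.052).

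At the replication fork 32 of 35 genes were measured, 11 called higher and 1 lower, with a median of 0.19. Of the 11, 4 are listed only through the mimic libraries, Lig1 and Prim1 among them. The 12 calls were 7 without scramble replicate 3 and 6 without mimic replicates 1 and 4. Rfc2, a subunit of the clamp loader, rose by 0.69 (adjusted p = 0.00048 by limma) to 11.7 ± 0.7 scaled CPM in mimic (SD, n = 4), against 6.87 ± 0.61 in scramble (SD, n = 3) and 7.43 ± 0.93 in PBS (SD, n = 4). Lig1, the ligase that joins Okazaki fragments, rose by 0.60 (adjusted p = 0.0017), Prim1, a primase subunit, by 0.56 (adjusted p = 0.0040) and Pold3, a subunit of polymerase delta, by 0.42 (adjusted p = 0.0041). The gene that fell was Top1, which encodes topoisomerase I, at -0.40 (adjusted p = 0.0066), named after its value was seen. For nucleotide supply 12 of 12 genes were measured, 6 called higher and 0 lower, with a median of 0.25, and 1 of the 6 is listed only through the mimic libraries. The 6 calls were 3 without scramble replicate 1, 3 without scramble replicate 2, 2 without scramble replicate 3 and 1 without mimic replicates 1 and 4. Dck, a deoxynucleoside kinase, rose by 0.46 (adjusted p = 0.0099), Rrm1, the large subunit of ribonucleotide reductase, by 0.41 (adjusted p = 0.014), and Dtymk, thymidylate kinase, by 0.31 (adjusted p = 0.016). Samhd1, which breaks down deoxynucleotides and is high in myeloid cells, rose by 0.74 (adjusted p = 0.022) against scramble, and against PBS its difference was 0.52 (adjusted p = 0.058), or 0.77 (adjusted p = 8.4e-05) without PBS replicate 2. Calls against scramble were lost for Samhd1 without scramble replicate 1 (adjusted p = 0.057) or 3 (adjusted p = 0.072), for Dtymk without scramble replicate 2 (adjusted p = 0.066) and for Rrm1 without scramble replicate 3 (adjusted p = 0.054).

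Among cyclins and regulators of the G1/S step other than Ccnd1 and Cdkn1a, 25 of 30 were measured, 3 called higher and 3 lower, with a median of 0.00. The 6 calls were 3 without scramble replicate 1, and 1 of the 3 called higher, E2f2, is listed only through the mimic libraries. E2f2, an activating E2F factor, averaged 1.09 ± 0.23 scaled CPM in mimic (SD, n = 4), 0.289 ± 0.085 in scramble (SD, n = 3) and 0.425 ± 0.219 in PBS (SD, n = 4), and rose by 0.69 (adjusted p = 0.0025 by limma) against scramble. The pocket protein gene Rbl1 rose by 0.48 (adjusted p = 0.0092) and Cdkn2c, an inhibitor of CDK4 and CDK6, by 0.43 (adjusted p = 0.024), a call that was lost without mimic replicate 2 or 3 or scramble replicate 1 or 2 (adjusted p = 0.050 to 0.099). Tfdp1, the partner of E2F factors, fell by 0.37 (adjusted p = 0.010), but differed by 0.14 with plain library totals. Rbl2, the pocket protein of quiescent cells, and Myc, a growth-promoting transcription factor, also fell, by 0.38 (adjusted p = 0.039) and 1.0 (adjusted p = 0.039), both named after their values were seen. Of 33 mitotic genes 14 were measured, 7 called higher and 0 lower, with a median of 0.26. The other 19 are not in the table. Of the 14, 7 reach its minimum only with the mimic libraries, among them 4 of the 7 called higher, Mki67, Top2a and Tacc3 included. These counts are therefore no measure of the list. Mki67, the Ki-67 proliferation antigen, averaged 1.89 ± 0.23 scaled CPM in mimic (SD, n = 4), 0.604 ± 0.246 in scramble (SD, n = 3) and 0.884 ± 0.414 in PBS (SD, n = 4), and rose by 0.86 (adjusted p = 0.0027). Top2a, topoisomerase II alpha, rose by 0.78 (adjusted p = 0.0020), Plk1, a mitotic kinase, by 0.39 (adjusted p = 0.0022) and Tacc3, a spindle protein, by 0.39 (adjusted p = 0.0098).

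Of 37 genes of the p53 circuit and its targets, leaving out the 3 members that belong to it, 30 were measured, 8 called higher and 1 lower against scramble, with a median of 0.16, and 2 of the 8 are listed only through the mimic libraries. Rap2b, a small GTPase reported as a p53 target in human cells, averaged 2.70 ± 0.36 scaled CPM in mimic (SD, n = 4), 0.674 ± 0.121 in scramble (SD, n = 3) and 0.894 ± 0.069 in PBS (SD, n = 4). Its log2 difference of 1.14 had the smallest p of the list (adjusted p = 2e-05 by limma). Rap2b is among the genes listed only through the mimic libraries, so that this p supports nothing. Apaf1, the scaffold of the apoptosome, rose by 0.60 (adjusted p = 0.0036), Bcl2l1, whose main product BCL-XL restrains apoptosis, by 0.45 (adjusted p = 0.0053), and Ddb2, a damage-recognition factor of nucleotide excision repair, by 0.39 (adjusted p = 0.0015). The gene that fell, Trp53inp1, a stress-induced nuclear protein, changed by -1.35 (adjusted p = 0.0058) and was named after its value was seen. Against PBS 11 were called higher and 2 lower, and these 13 calls were 8 without mimic replicates 1 and 4. Of the 4 measured relatives of Gadd45a and Cdkn1a, of 5 listed, 0 were called against scramble and 1 fell against PBS. That gene, Gadd45g, a paralog of Gadd45a, averaged 48.0 ± 8.4 scaled CPM in mimic (SD, n = 4), 59.4 ± 8.9 in scramble (SD, n = 3) and 68.3 ± 15.5 in PBS (SD, n = 4). Its difference was -0.49 (adjusted p = 0.043) against PBS and -0.31 (adjusted p = 0.22) against scramble, and with plain library totals 0.11 and 0.27. The call against PBS was lost without mimic replicate 2, 3 or 4, scramble replicate 1 or 3, or PBS replicate 2 or 3 (adjusted p = 0.050 to 0.12).

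Of 17 genes of DNA damage signalling 15 were measured, 2 called higher and 1 lower against scramble, with a median of -0.02. Of the 2, 1 is listed only through the mimic libraries, Chek2. The 3 calls were 1 without scramble replicate 1 and 1 without scramble replicate 3. Chek2, a checkpoint kinase, rose by 0.39 (adjusted p = 0.037 by limma) and Mdc1, a mediator of the damage response, by 0.28 (adjusted p = 0.039). Each of these calls was lost without 3 of the 4 mimic libraries in turn, and without scramble replicate 1 or 3 (adjusted p = 0.054 to 0.16 among these fits). That of Mdc1 was also lost without scramble replicate 2 (adjusted p = 0.10) or PBS replicate 1 (adjusted p = 0.054). Nbn, a subunit of the complex that senses double-strand breaks, fell by 0.57 (adjusted p = 0.0013) to 6.26 ± 0.81 scaled CPM in mimic (SD, n = 4), against 9.76 ± 0.43 in scramble (SD, n = 3) and 10.7 ± 0.9 in PBS (SD, n = 4). With plain library totals the difference of Nbn was -0.05 (adjusted p = 0.86 by limma) against scramble and -0.15 (adjusted p = 0.55) against PBS. Prkdc, the catalytic subunit of a DNA-dependent protein kinase, starts 466 bases from Mcm4 on the other strand. It averaged 4.44 ± 0.43 in mimic (SD, n = 4), 4.72 ± 0.37 in scramble (SD, n = 3) and 4.67 ± 0.49 in PBS (SD, n = 4), and was not called, with a difference of -0.07 (adjusted p = 0.57) against scramble, or 0.42 (adjusted p = 0.14) with plain library totals.

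**Figure D5:**
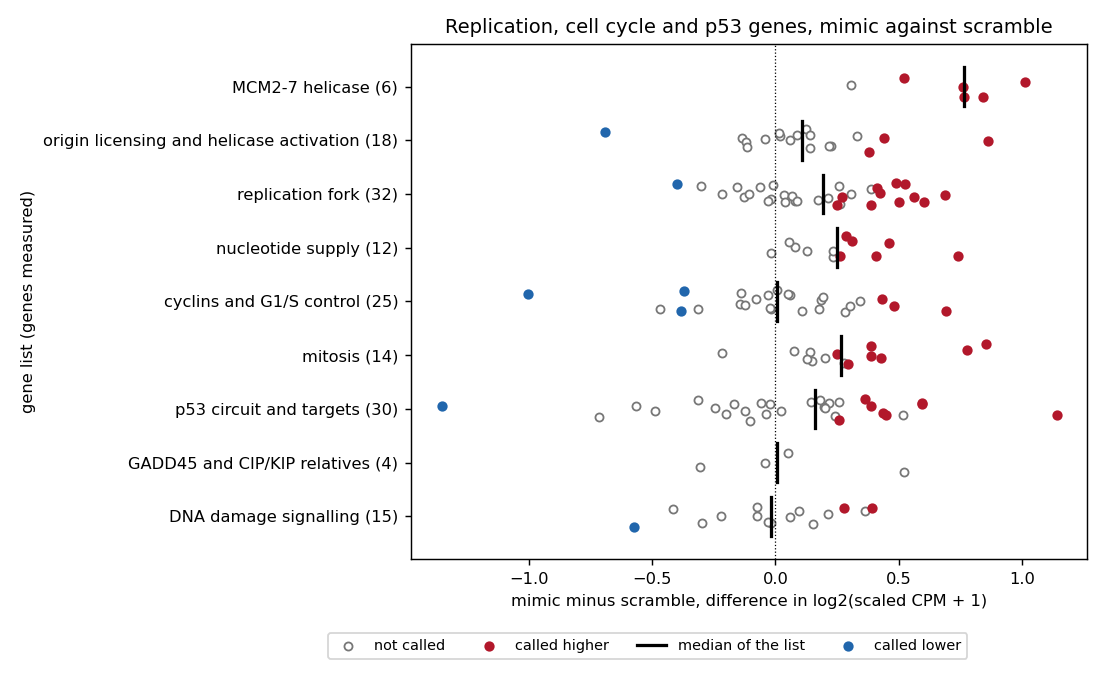
Mimic minus scramble differences on the log2(scaled CPM + 1) scale for the measured genes of 9 lists, each point 1 gene, with the number measured in brackets. Red points were called higher, blue points lower and open points not called, and black bars are list medians. The median of Mcm2 to Mcm7 is 0.76, and the other medians lie between -0.02 and 0.26. Of these 6 helicase genes 4 are listed only through the mimic libraries, which favours a high median, so the medians do not rank the lists.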

How the data were processed

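Liver RNA of 11 mouse samples was sequenced from stranded libraries in read pairs of 48 bases each, per the labels' protocols. Per the submitters' processing notes, Bowtie, SAMtools 0.1.19, bedtools 2.17.0 and edgeR 3.8.6 were used with build mm10, in no stated order. The deposited values are a scaled signal per gene, called scaled CPM here, made by the authors from counts divided by an effective library size. In each library 100% of values were whole multiples of 1 step (tolerance 1e-06), from which the reads counted were inferred. Few low values are left in the table to check that step, so the reads are estimates and no count test was run on them. Each of the 13636 genes has at least 1 CPM of the column total in 3 or more libraries, so genes low in all groups are not in the table.

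Values were tested as log2(value + 1) with limma 3.58.1 in R 4.3.3, in 1 fit of 3 group means over 11 libraries with a mean-variance trend, and adjusted over 13636 genes at 0.05. The design expected CPM and was kept for this signal. The fit was tested on simulated data first. Groups came from the sample titles. Nothing in the labels ties each library to a separate mouse, and a p-value then measures no more than spread among samples, which may be technical. Intervals cover 95%.

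Positions and 3′ UTRs are those of GENCODE M21, and promoters and the microRNA those of RefSeq. The genes and lists were chosen with earlier results of these data known. Named beside the 10 genes were up to 4 called genes per list with the smallest p against scramble (1 where none was called), genes starting within 1000 bases of a member's start on the other strand, and the 6 nearest profiles. Alternatives covered the pseudocount, filters, scaling, a replicate block, which libraries were fitted, the variance model and leaving out libraries. Figures were drawn with matplotlib 3.10.9.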

Additional observations from a re-analysis of the deposited data

Results flagged for a closer look

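In 8 of 108 groups of 4 libraries 1 library lay far from the other 3, where chance gives about 1 in 20. Mcm2 in PBS replicate 3 was 0.579 scaled CPM, against 0.724 to 0.742 in the other PBS libraries. Gadd45a in mimic replicate 2 was 4.87, against 4.22 to 4.27 in the other mimic libraries. Bcl2l1 in mimic replicate 1 was 19.2, against 15.1 to 15.8. In PBS replicate 2, Samhd1 was 19.5 against 8.23 to 10.1, Rrm1 was 3.52 against 2.39 to 2.56, and Nbn was 9.36 against 11.1 to 11.2 in the other PBS libraries. Rap2b in PBS replicate 4 was 0.791, against 0.920 to 0.935. PBS replicate 3 had 101380174 reads counted, against 62848115 to 67156859 in the other PBS libraries.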

How the results depend on the processing

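Mcm2, Mcm3, Mcm5, Mcm6 and Cdkn1a kept their direction and their call against scramble and PBS under each alternative that kept them in the table. These genes are listed only through the mimic libraries, which no alternative changes, so that their kept calls support nothing. With a mean of at least 5 scaled CPM, 3 of the 10 genes stayed, of which 1 was called against scramble and 2 against PBS. All genes called were then 2816 and 3273, and list genes called were 19, against 47. With plain library totals 81 list genes were called, 81 higher and 0 lower. Differences against scramble then changed sign for Mdm2 (0.54), Tfdp1 (0.14), Gadd45g (0.27), Prkdc (0.42), Ap4m1 (0.17) and E230016M11Rik (0.0098), and against PBS for Gadd45a (0.063), Mdm2 (0.46), Tfdp1 (0.11), Gadd45g (0.11), Prkdc (0.45), Ap4m1 (0.20) and E230016M11Rik (0.42). Calls of all genes were then split 5498 higher and 110 lower against scramble, where they were 2363 and 2000, and 6882 and 120 against PBS, where they were 2733 and 2326. With quantile normalization Mcm7 against PBS was -0.036 and Mdm2 against scramble 0.031, and Wdhd1, Gins1, Prim1, Dck, Rrm1, Dtymk, Cdkn2c, Tacc3, Chek2 and Mdc1 lost their calls against scramble (adjusted p = 0.052 to 0.21). Mcm7 was called against scramble with a pseudocount of 0.25 (adjusted p = 0.0499), no trend (0.0497), library weights (0.0083), plain library totals (0.013), without mimic replicate 3 (0.0076) and without PBS replicate 2 (0.045). Without mimic replicates 1 and 4 all genes called were 2548 and 2894, list genes 30, Mcm7 against PBS -0.089, Mdm2 against scramble 0.093 and E230016M11Rik against PBS 0.059. Calls against scramble were then lost for Gins1, Dck, Rrm1, Dtymk, Samhd1, Tfdp1, Tacc3, Chek2 and E230016M11Rik (adjusted p = 0.051 to 0.23 by limma). Against PBS they were lost for Gins1, Prim1, Dck, Rrm1, Dtymk, Rbl1, Mki67, Tacc3, Gadd45g and Chek2 (adjusted p = 0.056 to 0.22). Leaving out 1 library, all genes called against scramble ran from 2824 to 4904, list genes from 30 to 52, and members and all genes called in scramble against PBS from 0 to 1 each. Mdm2 against scramble ran from -0.079 to 0.065. Scramble minus PBS ran from -0.12 to 0.044 for Mcm2, -0.096 to 0.12 for Mcm3, -0.10 to 0.017 for Mcm4, -0.013 to 0.16 for Mcm5, -0.11 to 0.087 for Mcm6 and -0.26 to 0.050 for Cdkn1a. With only scramble and PBS in the fit 5 genes were called. With the replicate block 7, 7 and 0 of the 10 genes were called, Gadd45a against PBS losing its call (adjusted p = 0.0587), and 3808, 4584 and 0 of all genes. Deviations of same-numbered libraries correlated at -0.28 to 0.26, above 0.1 in 3 of 10 pairs. Those 3 are the pairs of replicates 3, at 0.23 for mimic with scramble, 0.26 for mimic with PBS and 0.12 for scramble with PBS. Differently numbered pairs ran from -0.40 to 0.35. With so few libraries per group this cannot decide whether the numbers pair the samples. Count tests (edgeR, DESeq2) were not run, and the causes of these changes were not tested. Depth limits Mcm5 most, with as few as 12 reads.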
